A study of Rattus norvegicus with 2 samples.

Results

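Circular RNAs (circRNAs) made from genes of chromatin regulators and of the cohesin complex were examined in rat spinal cord. Members were all circRNAs whose host gene name began with Kdm, Kmt, Setd, Nsd, Smarc, Arid, Brd, Hdac, Asxl, Phf, Baz, Dnmt, Tet or Chd, or was Ash1l, Ep300, Crebbp, Ino80, Ehmt1, Gse1, Stag1, Stag2, Smc3 or Nipbl. After Tet or Chd a digit had to follow. The rule used names alone and no read count, though it was set with earlier results of these data known. It took in 251 of 11599 circRNAs, from 68 of 3915 host names. All 68 names are current gene symbols, and each lay on the chromosome where RefSeq places that gene.

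The tissue came from rats with bone cancer pain (BCP) and from sham-operated rats, 21 days after surgery. BCP animals had received Walker256 cells, a rat mammary carcinoma line, in the marrow cavity of the tibia. Sham animals had received cells of the same line boiled for 20 min, by the same surgery, so that both groups carried material of that line. SD rats are named as hosts for growing the cells, and genotype, sex and age were not stated. Each group is described as 3 animals but has 1 library, and pooling of RNA was not given in the sources used here. No difference below therefore has a replicate check, and each compares 2 libraries and not 2 conditions.

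Back-splicing, the joining of an exon's end to the start of an earlier exon, closes an RNA into a ring, which is counted by reads over that back-splice junction. Chromatin regulators write, erase and read chemical marks on histones, slide or exchange nucleosomes, or methylate DNA. Cohesin is a ring of proteins that holds sister chromatids together and extrudes chromatin loops. Many of these genes are long with many exons, and mutations in several of them cause human disorders of brain development.

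The sham library held 113033 back-splice reads and the BCP library 78836, so sham was 1.43 times as deep. Counts are 0 or at least 2, so an entry of 0 does not show absence. Reads are compared between libraries as CPM, read counts scaled to a common library total. Intervals are 95% exact binomial (Clopper-Pearson) intervals and cover counting error only, as several reads can stem from 1 molecule. A circRNA or host gene met the size rule with at least 10 reads over both libraries, a ratio of at least 2-fold and an interval that excluded 1. Among circRNAs of cell type markers, all 7 neuronal genes were listed (1328 sham and 745 BCP reads, a ratio of 0.804, 0.734 to 0.881), while the astrocyte genes Gfap, Aqp4, Slc1a3 and Aldh1l1 and 5 of 5 skeletal muscle genes had none. Oligodendrocyte markers (3 of 6 listed) had 11 and 45 reads, a ratio of 5.87 (2.99 to 12.6). Of the 8 genes taken as microglia and macrophage markers, 3 were listed: Ptprc, Ikzf1 and Dock8. These had 13 and 55 reads, a ratio of 6.07 (3.27 to 12.1). As Cx3cr1, Csf1r, Aif1, P2ry12 and Inpp5d were unlisted, which cells these reads came from was not shown. Endothelial markers (3 of 4 listed) had 39 and 34 reads, a ratio of 1.25 (0.765 to 2.03). Blood and lymphoid markers (2 of 5 listed) had 25 and 13 reads, a ratio of 0.746 (0.350 to 1.51). The 1 listed astrocyte marker had 5 and 3 reads, a ratio of 0.860 (0.134 to 4.42). Thus the intervals of the neuronal genes, the oligodendrocyte genes and the trio Ptprc, Ikzf1 and Dock8 excluded 1. Those of the endothelial, blood and lymphoid, and astrocyte genes included it. The part of marker ratios in the results below was not tested. Fewer cells of a type and less circRNA per cell cannot be told apart in such tissue.

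Together the 251 members had 2363 reads in sham and 1802 in BCP. They made up 2.09% (2.01 to 2.18) of the sham library and 2.29% (2.18 to 2.39) of the BCP library, a ratio of 1.09 (1.03 to 1.16). With median-of-ratios scaling, which shifts every log2 ratio by -0.10, the ratio was 1.02 (0.956 to 1.08), and with the trimmed mean of M values (TMM), which shifts it by -0.12, it was 1.01 (0.948 to 1.07). In sham 203 members were listed, in BCP 151, and 103 in both. The share listed in both was 41.0%, beside 41.2% over the whole table. The median member had 5 reads, as in the whole table.

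Of the members, 81 had at least 10 reads and could be compared. By the size rule 9 were higher in BCP (11.1%), beside 7.82% of all circRNAs tested, and 6 were lower (7.41%), beside 7.34%. The other 66 met neither side. The median log2 ratio of the 81 was 0.01, and that of all 3502 circRNAs tested was 0.02. All 6 lower members were listed at 0 in BCP, and 4 of the 9 higher ones were listed at 0 in sham. Over the whole table, 83 of the 257 lower circRNAs and 190 of the 274 higher ones had reads in both libraries. Among tested circRNAs, those listed at 0 in either library made up 12.3% of members, beside 7.37% of the whole table. Of the 71 members tested with reads in both libraries, 5 were higher (7.04%, beside 5.86% of all such circRNAs) and 0 lower (beside 2.56%). The remaining 170 members held 16.6% of member reads and were too thinly covered to compare.

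**Figure D1:**
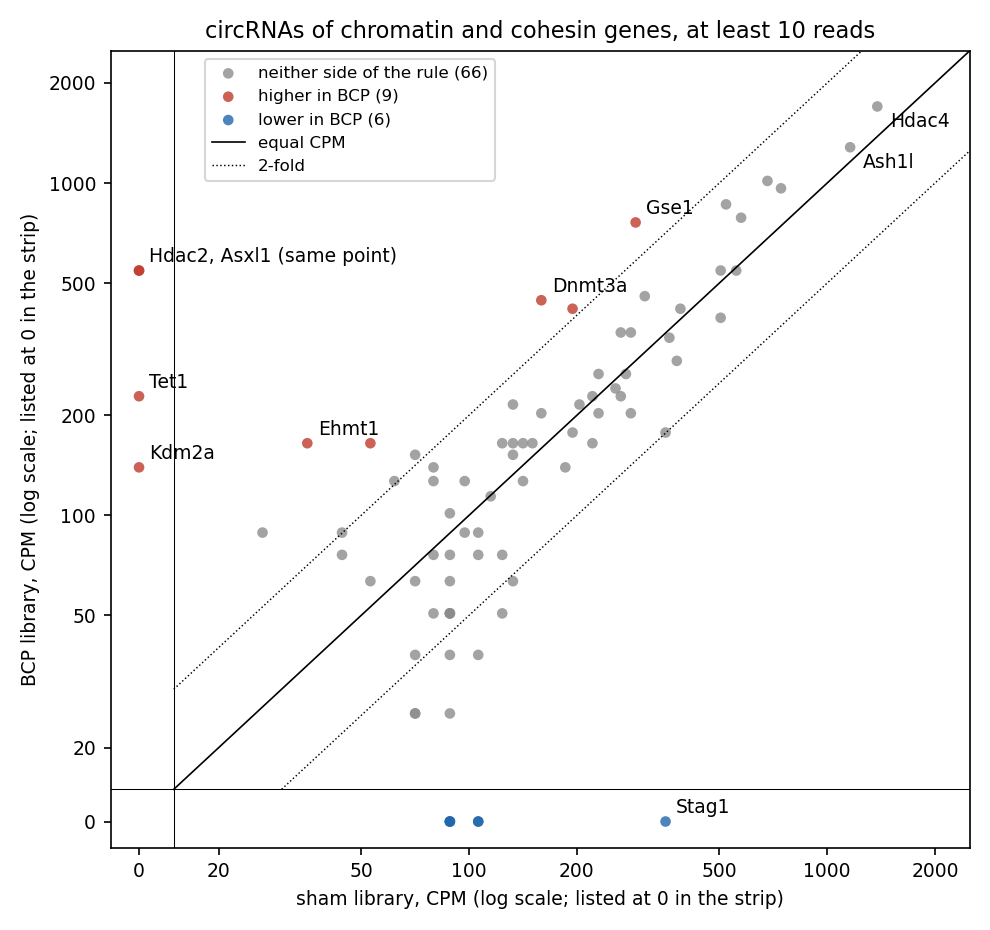
CPM of each of the 81 members with at least 10 reads in the sham library (horizontal, log scale) and the BCP library (vertical, log scale), with 1 point per circRNA and counts of 0 drawn in the marginal strips. Most points lie between the dotted 2-fold lines, the 6 blue points that were lower all lie in the strip of BCP at 0, and 4 of the 9 red points that were higher lie in the strip of sham at 0.

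The 12 most read members carried 36.4% of member reads in sham and 42.6% in BCP. Hdac4, a class IIa histone deacetylase gene that responds to calcium signalling in neurons, gave the most read one (chromosome 9, 99266783 to 99267021, rn6 build as for all positions). It spans 239 bp, and its 156 sham and 134 BCP reads gave a ratio of 1.23 (0.970 to 1.56). Ash1l, which encodes a methyltransferase of histone H3 lysine 36, came next with 131 and 101 reads (chromosome 2, 188301023 to 188309036; ratio 1.11, 0.844 to 1.44). The chromatin remodeller gene Chd7 followed with 84 and 76 reads (chromosome 5, 21884147 to 21895382; ratio 1.30, 0.938 to 1.79). Each of these 3 had a somewhat higher CPM in BCP, with an interval that included 1. Gse1 was the 1 member among these 12 that met the size rule. The other 11 had ratios between 0.780 (Ep300) and 1.65 (Chd2).

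Histone lysine methyltransferases add methyl groups to histone tails. The 8 genes grouped here as methyltransferases by name, whatever their activity, hosted 55 circRNAs with 557 and 419 reads. Of 19 tested, 3 were higher in BCP and 0 lower, with a median log2 ratio of 0.21 and a summed ratio of 1.08 (0.948 to 1.23), which was 1.00 with median-of-ratios and 0.995 with TMM scaling. The 3 higher ones came from Ash1l and Ehmt1. Ash1l hosted 12 circRNAs with 198 and 174 reads in all, a ratio of 1.26 (1.02 to 1.55). Its dominant circRNA, given above, took 66.2% of Ash1l reads in sham (59.1 to 72.7) and 58.0% in BCP (50.3 to 65.5). A longer circRNA from the same first position, ending at 188330330, had 22 sham and 33 BCP reads and was 2.15-fold higher (1.22 to 3.87). Under median-of-ratios and TMM scaling it did not reach 2-fold. Another, which shares the last position 188309036 and starts at 188298849, had 6 and 13 reads, 3.11-fold higher (1.10 to 9.97). Its host field holds 17 names. So 2 minor Ash1l circRNAs met the rule and the major one did not; the difference between them was not tested.

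Ehmt1, the gene for a methyltransferase of histone H3 lysine 9 (GLP), had 18 circRNAs with 105 and 89 reads (ratio 1.22, 0.906 to 1.63). No circRNA dominated it, the most read holding 24.7% of its reads. That one (chromosome 3, 2030744 to 2032401) had 32 and 16 reads, a ratio of 0.717 (0.367 to 1.35). In the other direction, a circRNA at 2021173 to 2025998 that counted 4 reads in sham and 13 in BCP was 4.66-fold higher (1.44 to 19.6). Some Ehmt1 circRNAs differed by a few bases. A pair from 2030744 ended 21 bp apart, at 2037656 with 15 and 5 reads and at 2037677 with 15 and 17. Their ratios were 0.478 (0.136 to 1.38) and 1.62 (0.763 to 3.49), and both intervals included 1. Summed, this pair had 30 and 22 reads, a ratio of 1.05 (0.578 to 1.88). Of the other genes in this name group, Setd7 had 80 and 72 reads, a ratio of 1.29 with an interval that included 1. Kmt2e, a member of the mixed-lineage leukaemia family, had 85 and 38 reads, a ratio of 0.641 (0.425 to 0.950), an interval that excluded 1 without a 2-fold difference. Nsd1, a methyltransferase gene mutated in Sotos syndrome, had 45 and 23 reads over 9 circRNAs, a ratio of 0.733 (0.423 to 1.24).

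Histone lysine demethylases remove these marks. Their 9 genes hosted 36 circRNAs with 240 and 146 reads, a summed ratio of 0.872 (0.705 to 1.08), and of 11 tested 1 was higher and 2 were lower. Kdm5a, an eraser of methyl marks on histone H3 lysine 4, had the most reads, 92 and 65 over 9 circRNAs, a ratio of 1.01 (0.726 to 1.41), or below 1 under the other scalings. Within it, a circRNA at chromosome 4, 152921913 to 152925673, had 57 and 43 reads. A second one from the same first position, ending at 152938162, had 12 sham reads against 0 in BCP. For Kdm2a, which acts on histone H3 lysine 36, 1 circRNA (chromosome 1, 219570015 to 219571238) had 11 BCP reads against 0 in sham. The other 6 Kdm2a circRNAs had 17 and 12 reads, and 5 of these 6 ended at the same position, 219638528. Kdm4b had a circRNA with 10 reads (chromosome 9, 10704605 to 10710650), and the gene had 16 reads in sham and 0 in BCP. Summed by gene, Kdm1a, which encodes the LSD1 demethylase, had 20 sham and 3 BCP reads, 4.65-fold fewer by CPM (1.38 to 24.4). From its circRNA with reads in both libraries alone, it had 12 and 3 reads, a ratio of 0.358 (0.0649 to 1.33). Kdm4c (55 and 25 reads) and Kdm6a (40 and 23 reads) met neither side of the rule.

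Ep300 and Crebbp encode the paired acetyltransferases p300 and CBP. They had 8 circRNAs with 142 and 80 reads, a summed ratio of 0.808 (0.606 to 1.07). With median-of-ratios scaling the ratio was 0.751 (0.564 to 0.995) and with TMM 0.745 (0.559 to 0.986), intervals that excluded 1. In each gene 1 short circRNA took most of the reads. For Crebbp it spans 710 bp (chromosome 10, 11626519 to 11627228) with 63 and 43 reads, a ratio of 0.979 (0.648 to 1.47). For Ep300 it spans 638 bp (chromosome 7, 122834692 to 122835329) with 57 and 31 reads, a ratio of 0.780 (0.487 to 1.23). These dominant circRNAs held 84.8% of Crebbp reads and 90.7% of Ep300 reads. None of the 3 tested circRNAs of this pair met the size rule. The other 3 circRNAs of Crebbp had 17 and 2 reads, a ratio of 0.169 (0.0189 to 0.711).

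Histone deacetylases remove acetyl marks, and with their corepressor partner Gse1 they formed a group of 6 genes. Their 14 circRNAs had 258 and 263 reads, a summed ratio of 1.46 (1.23 to 1.74), and of 5 tested 2 were higher and 0 lower. The single circRNA of Gse1, a subunit of histone deacetylase corepressor complexes, spans 219 bp (chromosome 19, 54125781 to 54125999). The counts of 33 in sham and 60 in BCP made it 2.61-fold higher (1.68 to 4.12). Hdac2, a class I deacetylase gene that is highly expressed in neurons, had 1 circRNA (chromosome 20, 43092420 to 43093954), listed at 0 in sham and with 43 reads in BCP. Hdac11 went the other way, with 47 and 14 reads over 3 circRNAs, 2.34-fold lower (1.27 to 4.61). Its main circRNA had 40 and 14 reads, a ratio of 0.502 (0.252 to 0.942), just inside 2-fold, and it met the rule with median-of-ratios and TMM scaling. The 7 circRNAs of Hdac9 had 17 and 6 reads, and 0 of the 7 were listed in both libraries.

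Bromodomain (Brd) and PHD finger (Phf) genes mostly encode proteins that bind acetylated or methylated histones, although Phf2 and Phf8 are themselves demethylases. Their 14 genes had 26 circRNAs with only 147 and 96 reads, a ratio of 0.936 (0.716 to 1.22), or 1.32 (0.983 to 1.77) over circRNAs listed in both libraries. Of 5 tested, 0 were higher and 1 was lower. That one came from Brd9, a subunit of a SWI/SNF complex, with 10 reads in sham and 0 in BCP (chromosome 1, 31950617 to 31954909). Brd9 as a whole had 20 and 4 reads, 3.49-fold lower (1.17 to 14.0). Its 1 circRNA listed in both libraries had 2 and 4 reads. Phf21a, a reader of unmethylated histone H3 lysine 4, had the most reads under its own name, 37 and 28.

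Asxl1, the partner of a deubiquitinase that removes a Polycomb mark, showed a split within 1 gene. All 3 of its circRNAs start at the same position of chromosome 3, 148837814. The shortest, ending at 148842440, was listed at 0 in sham and had 43 reads in BCP. The one ending at 148862118 had 9 and 11 reads, a ratio of 1.75 (0.660 to 4.78), and the one ending at 148855356 had 3 and 6 reads. The shortest therefore took 0% of 12 Asxl1 reads in sham (0 to 26.5) and 71.7% of 60 in BCP (58.6 to 82.5). Summed, Asxl1 had a ratio of 7.17 (3.82 to 14.6). Leaving out the shortest circRNA gave 2.03 (0.914 to 4.66), which did not meet the rule. The host fields of the other 2 circRNAs hold 11 names each, and that of the shortest holds Asxl1 alone.

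**Figure D2:**
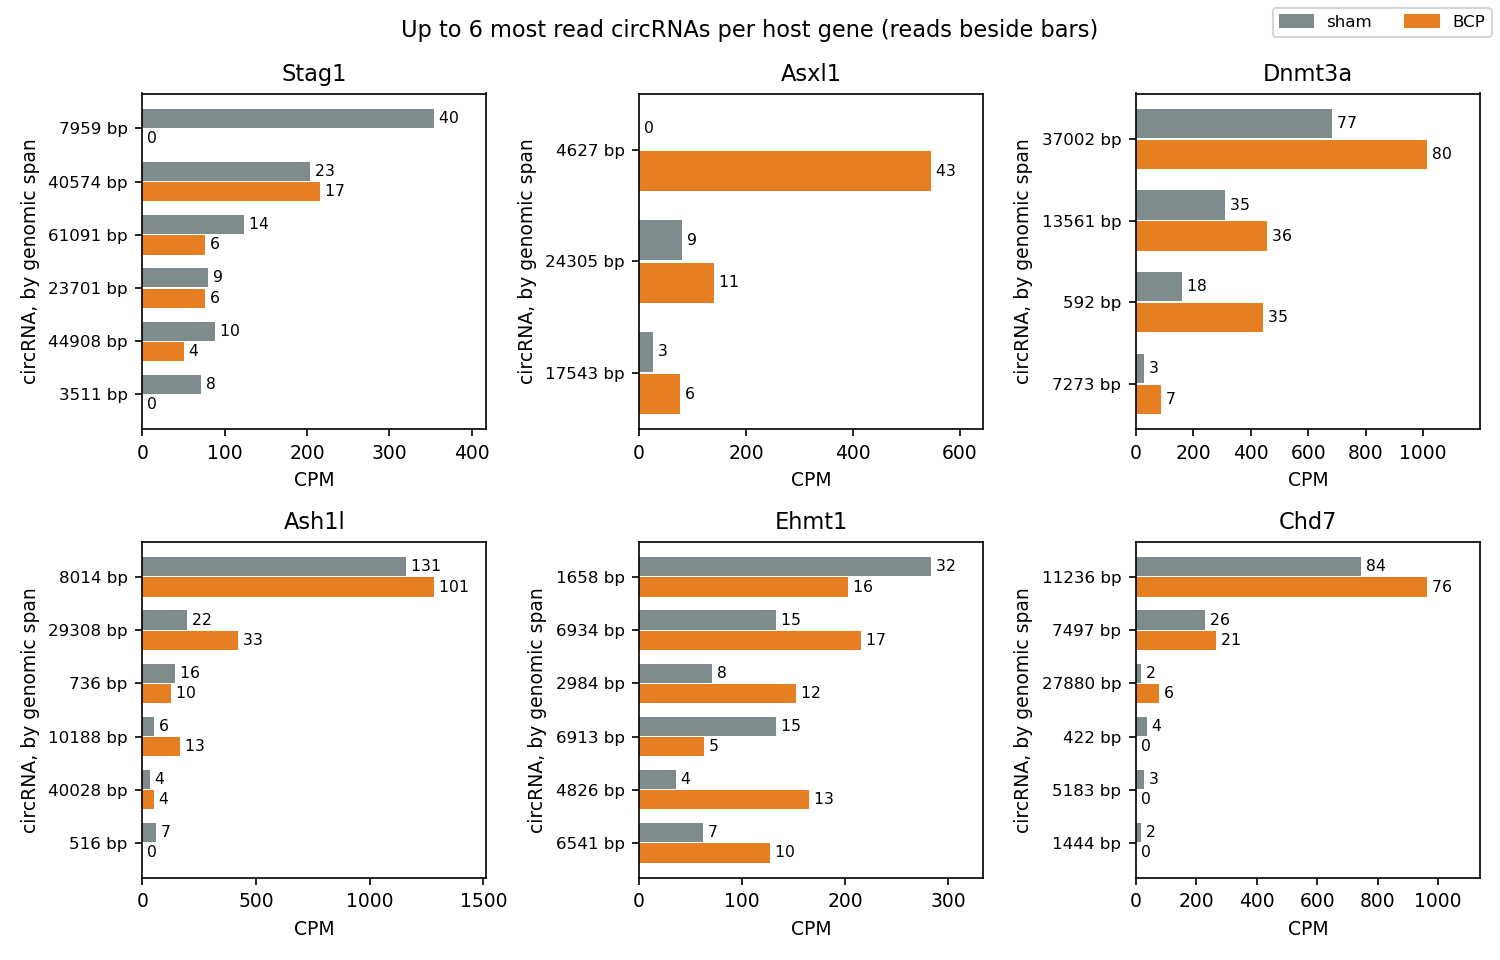
CPM of up to 6 most read circRNAs of Stag1, Asxl1, Dnmt3a, Ash1l, Ehmt1 and Chd7 in the sham and BCP libraries, as bars from 0 labelled with read counts, each circRNA named by its genomic span. The Stag1 circRNA drawn first has 40 sham reads and 0 BCP reads, tied in total with the next (23 and 17), the top Asxl1 circRNA has 0 and 43, and all 4 Dnmt3a bars are longer in BCP.

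Nucleosome remodelling complexes use ATP to move or exchange nucleosomes. The genes named Smarc, Arid, Chd or Baz, with Ino80, made up 21 genes and 78 circRNAs, grouped here as remodellers by name. Most encode subunits of such complexes, but Arid3a (2 and 0 reads), a DNA-binding transcription factor, and Arid4a (5 and 0 reads), a subunit of a Sin3 deacetylase complex, do not. They had 697 and 501 reads, a ratio of 1.03 (0.917 to 1.16), which was below 1 with median-of-ratios (0.958) and TMM (0.950) scaling. Of 23 tested circRNAs, 0 were higher and 1 was lower, and the median log2 ratio was -0.03. Smarca2, which encodes the BRM ATPase of SWI/SNF, had 107 and 73 reads over 11 circRNAs, a ratio of 0.978 (0.716 to 1.33). Chd7, mutated in CHARGE syndrome, had 121 and 103 reads, a ratio of 1.22 (0.929 to 1.60). Chd2 had 67 and 75 reads, a ratio of 1.60 (1.14 to 2.27), short of 2-fold. Arid1b, the SWI/SNF gene of Coffin-Siris syndrome, had 69 and 41 reads, a ratio of 0.852 (0.564 to 1.27). Of its 7 circRNAs, 4 start at position 45923228 of chromosome 1, and these had 60 and 36 reads together. The lower circRNA belonged to Baz1b (chromosome 12, 24494972 to 24502367), with 10 reads in sham and 0 in BCP. Baz1b as a whole had 63 and 29 reads, a ratio of 0.660 (0.410 to 1.04). Of the host sums, Smarcc1 had 13 and 2 reads, 4.53-fold lower (1.03 to 41.4), with 0 of its 4 circRNAs listed in both libraries. Ino80 had 1 circRNA with 44 and 33 reads, a ratio of 1.08 (0.663 to 1.73).

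Genes of DNA methylation had a higher summed CPM in BCP, Tet3 excepted. Dnmt3a encodes a de novo DNA methyltransferase, and Tet1 and Tet3 encode enzymes that oxidise methylcytosine. Their 9 circRNAs had 163 and 185 reads, a summed ratio of 1.63 (1.31 to 2.02). Over circRNAs listed in both libraries it was 1.62 (1.29 to 2.04), from 145 and 164 reads. Dnmt3a gave 133 and 158 of these and 1 Tet1 circRNA the other 12 and 6, so that ratio mostly describes Dnmt3a. All 4 Dnmt3a circRNAs were listed in both libraries and all 4 had more reads in BCP despite its lower depth. The longest (chromosome 6, 28235696 to 28272697) had 77 and 80 reads, a ratio of 1.49 (1.08 to 2.06). A circRNA from the same first position, ending at 28249256, had 35 and 36 reads, a ratio of 1.47 (0.900 to 2.42). The 592 bp circRNA at its other end, 28272106 to 28272697, had 18 and 35 reads, 2.79-fold higher (1.54 to 5.23), and was the 1 Dnmt3a circRNA that met the size rule. Summed, Dnmt3a had 133 and 158 reads, a ratio of 1.70 (1.34 to 2.16), short of 2-fold. Tet1 had a circRNA on chromosome 20 (27409750 to 27415954) with 18 reads in BCP and 0 in sham, and a second one that starts 4 bp further on with 3 and 0. The remaining Tet1 circRNA (27373757 to 27374099), whose host field holds 8 names, had 12 and 6 reads. The sum for Tet1 was 12 and 27 reads, 3.23-fold higher (1.58 to 6.99), or 0.717 (0.221 to 2.06) from the remaining circRNA alone. Tet3 was the exception, with 18 reads in sham over 2 circRNAs and 0 in BCP, 12 of them from the circRNA at chromosome 4, 115104274 to 115106428.

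Cohesin genes had fewer circRNA reads in BCP. Their 22 circRNAs gave 147 reads in sham against 52 in BCP, a summed ratio of 0.507 (0.362 to 0.700). Most of these reads came from Stag1, which encodes one of the alternative subunits that bind the cohesin ring, with 134 and 45 reads over 18 circRNAs, 2.08-fold lower (1.47 to 2.98). Of these 18, 6 were listed in both libraries. The circRNA with most sham reads (chromosome 8, 109044546 to 109052504) had 40 against 0 in BCP. It was the 1 of 6 tested cohesin circRNAs that met the rule. Its share of Stag1 reads was 29.9% in sham (22.3 to 38.4) and 0% of 45 reads in BCP (0 to 7.87). A circRNA from the same first position, ending at 109085119, had 23 and 17 reads, a ratio of 1.06 (0.531 to 2.07). One with the same last position as the 40-read circRNA, starting at 108991414, had 14 and 6 reads, a ratio of 0.614 (0.194 to 1.70), and 12 names in its host field. Thus both of its splice positions were used in other circRNAs of the BCP library. From the 6 Stag1 circRNAs listed in both libraries alone, reads were 65 and 39, a ratio of 0.860 (0.563 to 1.30), and for the whole group 75 and 42, a ratio of 0.803 (0.537 to 1.19). Stag2, the X-linked paralogue, had 13 and 3 reads, a ratio of 0.331 with an interval that included 1. Smc3, a ring subunit, and Nipbl, the cohesin loader, had 2 reads each in BCP and 0 in sham.

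**Figure D3:**
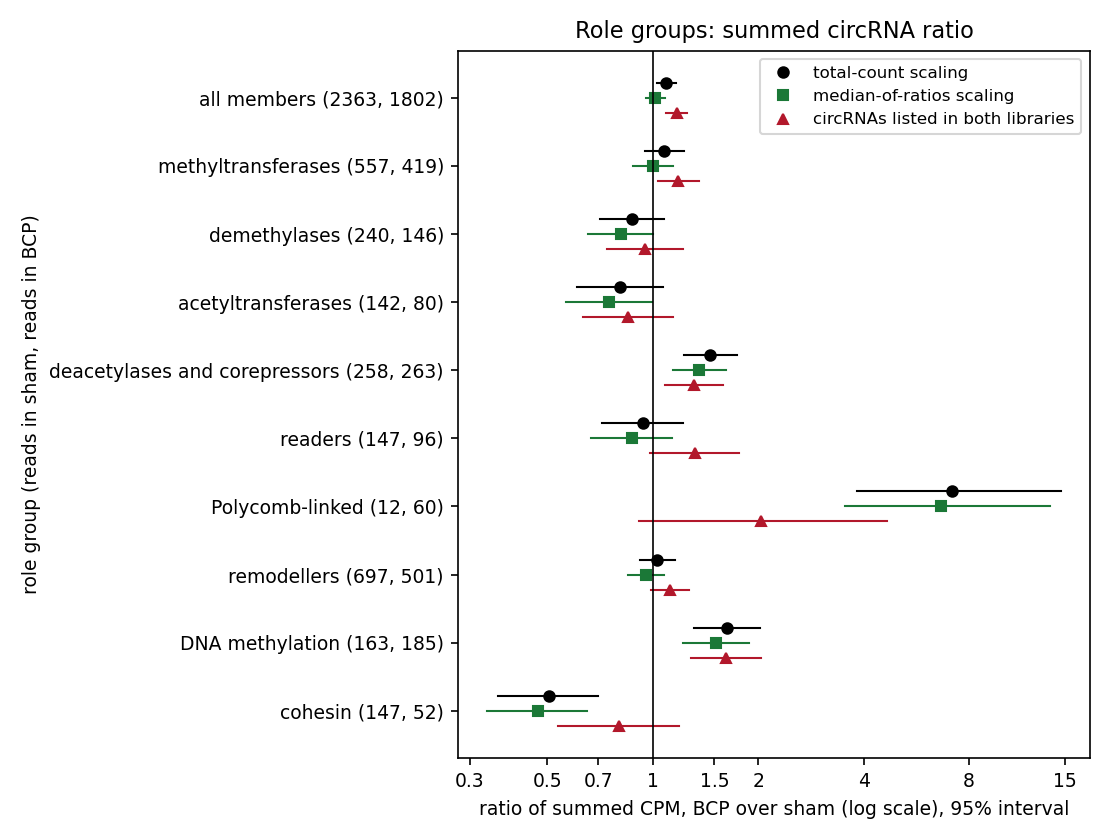
Ratio of summed CPM, BCP over sham (log scale), for all members and each role group, as points with 95% exact binomial intervals under total-count scaling, median-of-ratios scaling and restriction to circRNAs listed in both libraries. Cohesin lies at 0.507 and at 0.803 after the restriction, Asxl1 (Polycomb-linked) at 7.17 and 2.03, and DNA methylation genes at 1.63 and 1.62.

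Summing reads over each host gene gave 47 member genes with at least 10 reads. Of these, 4 were higher in BCP (8.51%, beside 8.75% of all host genes tested): Asxl1, Tet1, Gse1 and Hdac2. Another 7 were lower (14.9%, beside 8.52%): Stag1, Hdac11, Brd9, Kdm1a, Tet3, Kdm4b and Smarcc1. From circRNAs listed in both libraries alone, 39 member genes could be compared, and 1 was higher (Gse1; 2.56%, beside 5.01% of all) and 0 lower (beside 1.65%). The calls other than Gse1 thus rested wholly or partly on circRNAs listed in 1 library. Among the 10 host genes with most reads, Stag1 alone met the rule, and the other 9 had ratios between 0.978 (Smarca2) and 1.70 (Dnmt3a).

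**Figure D4:**
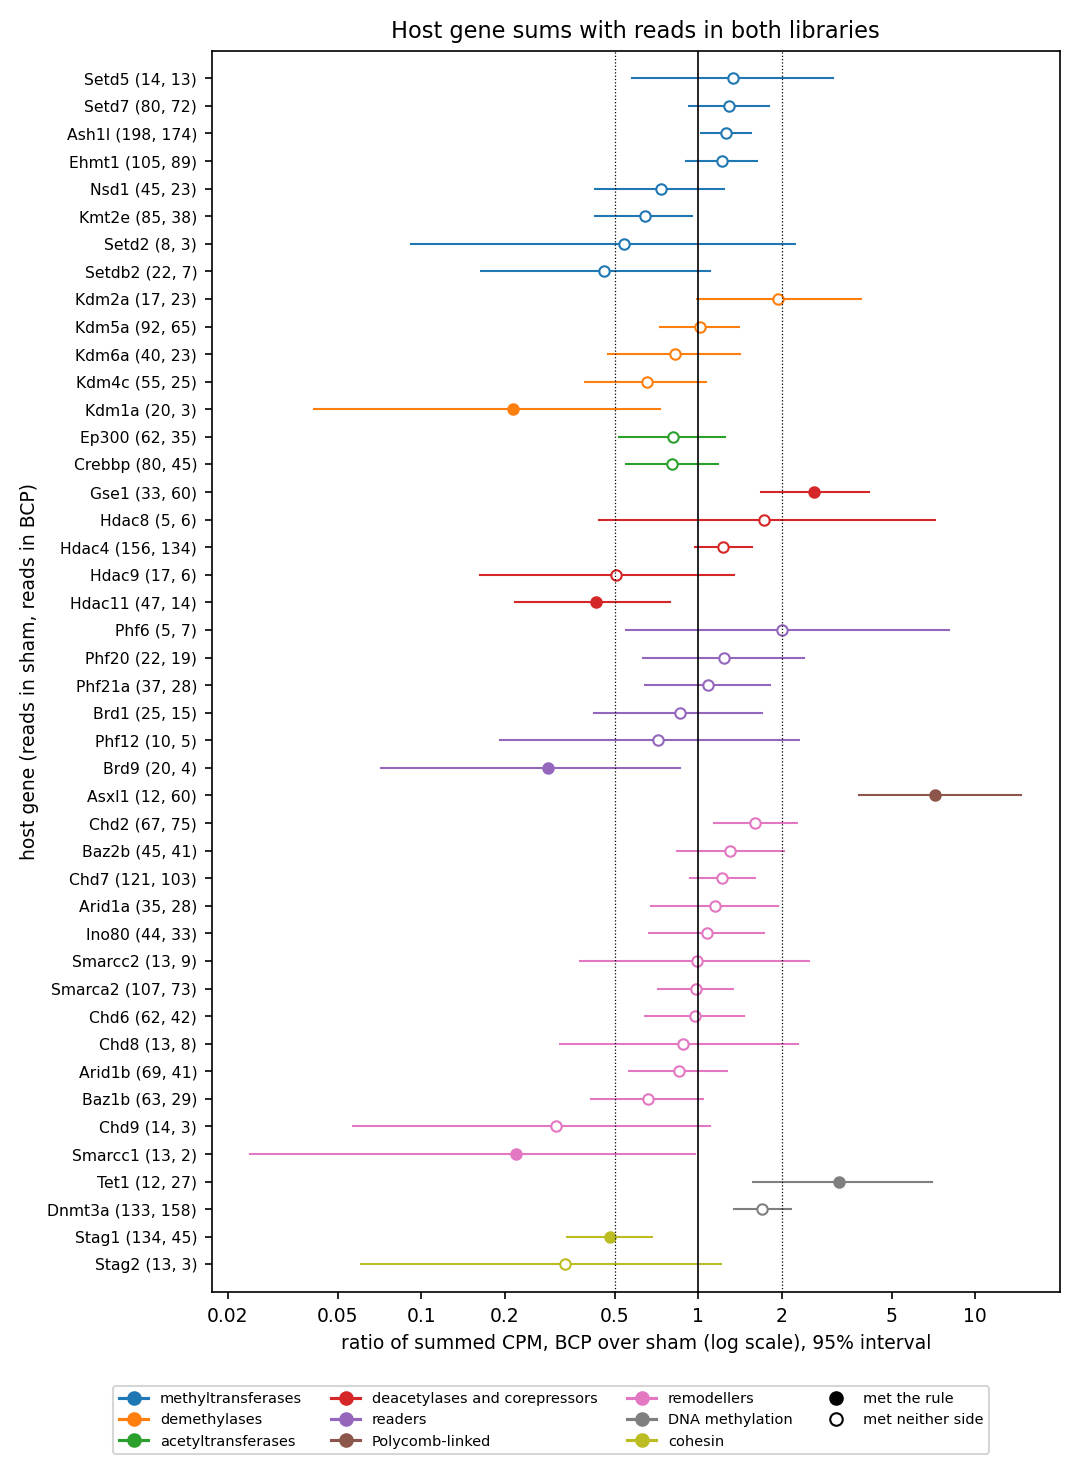
Ratio of summed CPM, BCP over sham (log scale), for the 44 tested member genes with reads in both libraries, coloured by role group, with 95% exact binomial intervals and read counts (sham, BCP) beside each name. Filled points (Asxl1, Tet1 and Gse1 to the right, Stag1, Hdac11, Brd9, Kdm1a and Smarcc1 to the left) met the size rule, and intervals are narrow for genes with many reads, such as Ash1l (198, 174).

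In structure, the members differed from the whole table in a few respects, given here as descriptions. Their median genomic span was 9656 bp, beside 9708 bp overall. Host genes with 5 or more circRNAs made up 26.5% of the 68 (18 genes), beside 13.6% of all host names, led by Ehmt1 and Stag1 (18 each), Ash1l (12), Smarca2 (11) and, with 9 each, Kdm5a and Nsd1. Sharing of a start or end position with another member was found in 176 of the 251 (70.1%), and sharing with any other circRNA in 59.9% of the whole table. Of the 15 members that met the size rule, 10 shared a position (66.7%), beside 62.7% of all circRNAs that met it. Only 9 members spanned at most 500 bp, but they carried 11.6% of member reads in sham and 13.5% in BCP, beside 5.25% and 6.02% for such circRNAs in the whole table. Hdac4, Gse1, Smarca2 (218 bp, 41 and 27 reads) and Arid1b (195 bp, 21 and 11 reads) gave most of those reads. In 6 pairs of members, 1 position was shared and the other differed by at most 30 bp, in Brd9 (2 pairs), Ehmt1 (2), Hdac11 and Tet1.

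Other chromatin genes outside the naming rule were read out the same way. From a list of 71 such genes (cohesin partners, Polycomb, acetyltransferase, corepressor and methyl-DNA binding genes among them), 42 hosted circRNAs, with 1773 and 1345 reads, a ratio of 1.09 (1.01 to 1.17). Of 40 tested circRNAs, 6 were higher (15%, beside 7.82% of all) and 4 lower (10%, beside 7.34%). Higher ones included circRNAs of the reader gene Zmynd8 (12 sham and 26 BCP reads, 3.11-fold, 1.51 to 6.76) and the SWI/SNF gene Ss18 (10 and 21 reads, 3.01-fold, 1.36 to 7.16). On the lower side, 1 circRNA of Morc3 had 65 and 22 reads (2.06-fold lower, 1.25 to 3.51), and the gene as a whole had 89 and 49 over 9 circRNAs (ratio 0.789, 0.545 to 1.13). For the remodeller gene Bptf, 1 circRNA had 25 and 4 reads (4.36-fold lower, 1.51 to 17.2), and the gene had 69 and 39 over 9 (ratio 0.810, 0.533 to 1.22). Neither gene's sum met the size rule. A circRNA of Smchd1, which encodes a relative of the cohesin ring subunits, had 17 reads in sham and 0 in BCP. The loop anchor gene Ctcf had a circRNA with 8 and 15 reads, 2.69-fold higher (1.07 to 7.32). Its sum, 11 and 15 reads, had a ratio of 1.96 (0.839 to 4.71) and did not meet the rule.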

How the data were processed

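Per the labels' protocols, total RNA was cleared of ribosomal RNA, treated with RNase R (16 units, 15 min) against linear RNA, and made into strand-marked libraries. Host gene mRNA was therefore not measured. The authors deposited 1 table with back-splice read counts and, in columns headed TPM, CPM values that equal the deposited count scaled to the column total within 0.001 CPM. CASAVA 1.8, BWA and rn6 are named per the submitters' processing notes, while the circRNA caller was not given in the sources used here. Both source labels read Walker256, and the tissue label, spinal cord, was followed.

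Members were matched on comma-separated host names. Small RNA family names were ignored. The 65 names covering over 3 Mb of a chromosome were skipped, 0 of them member names. Names were checked against RefSeq symbols (GRCr8). A log2 ratio (BCP over sham, 0.5 reads added to each) decides the fold of the size rule. Ratios printed are of CPM without a pseudocount, and no fold is given against a count of 0. Intervals are conditional exact binomial. No p-value can be had with 1 library per group. Steps were tested on simulated data. Scalings came from DESeq2 1.42.0 and edgeR 4.0.16, and the rest from Python 3.11.15 with SciPy 1.17.1. The text names the 12 most read members, all that met the size rule, host sums that met it, the 5 genes with most circRNAs (6 with a tie), the most read gene of each role group, and up to 3 other chromatin circRNAs per direction. An item that this rule names is not reported here. Further genes were named after their values were seen. Members and lists were chosen with earlier results of these data known. No genome of the files' build was used here, so exons and sequences are not given.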

Additional observations from a re-analysis of the deposited data

How the results depend on the processing

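No paired analysis was possible because each group has 1 library. Of 122 recomputed values, 104 stayed within 1.5 times of the count, or within the interval of the ratio, and 0 reversed a ratio whose interval excluded 1. Some of the 104 could not move, so that count overstates stability. Keeping names over 3 Mb brought in no member name. Leaving out Hdac4, or adding the circRNAs without host name described below, left most role groups untouched. Sums whose interval included 1 crossed it for remodellers (0.958 with median-of-ratios scaling), methyltransferases (0.995 with TMM) and readers (1.32 over circRNAs in both libraries). The acetyltransferase interval came to exclude 1 under either scaling, and the demethylase interval under TMM. The summed ratio of all members was 1.02 with median-of-ratios scaling, 1.01 with TMM and 1.17 over circRNAs with reads in both libraries. For the whole table, such circRNAs had a ratio of 1.04 (1.03 to 1.05) and not 1. With members restricted in this way the ratios were 1.32 for readers, 2.03 for Asxl1 and 0.803 for cohesin, with 5 circRNAs higher and 0 lower, and 1 host sum higher and 0 lower. Without Hdac4 the deacetylase group ratio was 1.81. With at least 20 reads, 5 circRNAs were higher and 1 lower, and 4 host sums were lower. With no read minimum 16 circRNAs were lower, and with at least 3-fold 5 were higher. No whole-table shares are given for other read minimums or folds, so these counts do not show whether members differed. Either scaling gave 8 higher and 7 lower members of 81 tested. The whole-table shares were 6.6% higher and 8.68% lower under median-of-ratios, or 6.51% and 8.79% under TMM. The alternatives change which circRNAs enter, the threshold or the scale. What moved each value was not tested. Of the 15 circRNAs that met the size rule, 14 kept their side under either scaling (1 of Ash1l was lost and 1 of Hdac11 was gained), 15 with a pseudocount of 1 and 11 at 3-fold. Single host names alone changed no count by over 1.5 times, and keeping names over 3 Mb could change none, as 0 were member names. Depth limits the text as well: 170 of 251 members had under 10 reads.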

Other observations

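The host name field leaves out circRNAs that share a splice position with a member. After the data were seen, 8 circRNAs without any host name were found that start or end exactly at a member's position, with 846 reads in sham and 597 in BCP. Of these, 3 share a position with Phf21a circRNAs. The largest, on chromosome 3 (81127393 to 81143240), had 802 and 555 reads, a ratio of 0.992 (0.889 to 1.11), more than any member. It ends where the main Phf21a circRNA (81134588 to 81143240; 30 and 28 reads) ends. The other two had 18 and 19 reads (81121255 to 81143240) and 15 and 12 reads (81127393 to 81159096). None of these 3 met the size rule. Added to the 37 and 28 reads under the name Phf21a, they would bring that locus to 872 and 614 reads, and the reader group from 147 and 96 reads to 982 and 682, with a ratio of 0.996 (0.902 to 1.10). With all 8 added, 9 circRNAs were higher and 6 lower, as before, and the summed ratio of all members was 1.07 (1.02 to 1.13). Such a shared position does not show which gene the unnamed circRNAs belong to. The remaining 5 had at most 7 reads each and share positions with Chd7, Phf20, Arid1b (2 circRNAs) and Dnmt3a.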
